A study of Homo sapiens with 48 samples.

Results

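The late-induced genes were those whose transcripts stood at most 25% above their unstimulated level after 6 h of TGFβ and IL-1β in control fibroblasts. After 24 h these transcripts stood at least 2 times above it. They were chosen on CPM, a gene's estimated count as a share of the library total, scaled to the same total in all libraries, averaged over the 3 libraries per time of the control cells of the knockout arm, H47_Ctrl. A gene was kept with a 24 h mean of 5 CPM or more, a 24 h mean of at least 2 times the 0 h mean and a 6 h mean at most 25% above the 0 h mean, and gene names starting with COL, MMP, HOX, RPL or RPS were left out. This rule took 45 of 29744 genes, and the name rule removed 1 gene that met the limits, MMP2. No lower limit was set at 6 h. In H47_Ctrl the median 6 h mean of the genes was 1.07 times the 0 h mean, and the lowest was that of PTPRR, at 0.502 times. In all, 261 genes met both 24 h limits whatever their 6 h value. The 0 h, 6 h and 24 h values of H47_Ctrl chose the genes, so these values are a description and were not tested, nor was any difference between H47_KO and H47_Ctrl.

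The 4 groups of cells came from IL11mNG fibroblasts sorted as single-cell clones, immortalized human skin fibroblasts (ATCC CRL-4001) in which the fluorescent protein mNeonGreen reports the expression of IL11. H47_Ctrl cells carried Cas9 and a non-targeting guide, and H47_KO cells carried Cas9 and a guide against GLIS3, a zinc finger transcription factor. VP64_Ctrl and VP64_A cells carried dCas9–VP64, which activates the gene a guide points to, one of them with a guide for GLIS3 and the other with a non-targeting guide. The sample titles and descriptions of these CRISPRa cells name opposite groups as the control, so both are called here by the descriptions. All were drug-selected bulk populations rather than clones of edited cells, so an H47_KO library can average over different edits. Each group was cultured with TGFβ and IL-1β at 10 ng per ml each for 0, 6, 12 or 24 h and all cells were harvested together, with 3 libraries for each of the 16 conditions and 48 libraries in all. The study states that its cell culture experiments used independent biological replicates, and the labels do not say how the 3 libraries of a condition were kept apart, so p-values measure the spread between these libraries. In such bulk libraries fewer cells of a kind and less RNA per cell cannot be told apart.

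TGFβ acts through SMAD transcription factors and drives fibroblasts to make matrix, and IL-1β acts through NF-κB and switches on cytokine and chemokine genes within hours. Interferons act by another route: their receptors activate a transcription factor complex that holds STAT2 and IRF9 and binds the interferon-stimulated response element (ISRE) in the promoters of antiviral genes. Genes that rise late in a cytokine response often need a protein or a secreted factor that is made first.

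Library totals lay between 2321990 and 10661004 estimated counts over the 48 libraries. GLIS3 ranged from 1.55 to 8.63 CPM in H47_Ctrl, from 0.146 to 2.46 CPM in H47_KO, from 2.31 to 5.29 CPM in VP64_Ctrl and from 13.5 to 38 CPM in VP64_A, so it was highest in the group that the descriptions name VP64_A. All 9 fibroblast markers had a median of at least 1 TPM (a scale that corrects for library total and transcript length), and their summed level ranged from 11383 to 31777 TPM. Of 6 keratinocyte markers KRT14 and KRT10 reached that level, with a summed level of 3.39 to 84.6 TPM, and none of the endothelial, haematopoietic, melanocyte, smooth muscle and pericyte or adipocyte markers did, their sums staying at or below 2.35 TPM. VP64_Ctrl at 0 h had the lowest mean share of counts in its 50 most abundant genes, 30.2% ± 6.25 (SD, n = 3), against 36.3% to 45% on average in the other 15 conditions. Its 3 libraries stood at 32.6%, 34.9% and 23.1%, so replicate 3 was the one apart. Replicate 3 of H47_KO at 0 h stood at 30.7%. Scaling by trimmed mean of M-values (TMM, edgeR's default, which assumes that most genes do not change) and scaling by library totals differed, in VP64_Ctrl and H47_KO most of all at 6 h. With library totals the median gene tested changed by -0.785 (log2) from 0 to 6 h in VP64_Ctrl, by -0.61 in H47_KO and by -0.252 in VP64_A, against -0.0527, -0.0977 and -0.0134 with TMM. The number of late-induced genes called at 6 h in each group is therefore given on both scales.

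By symbol or synonym all 45 genes matched RefSeq annotation of GRCh38.p14. They comprised 43 protein-coding genes, 1 long non-coding RNA and 1 pseudogene on 17 chromosomes. For 34 of them the promoter table held at least 1 promoter (250 bases before to 50 bases after the start), 47 promoters in all. The ISRE core, TTTC followed by any 2 bases and TTTC again and searched on both strands, occurred in 5 of these 47 promoters (10.6%), in 2.93% of the 13118 promoters of genes tested in the CRISPRa arm and in 3.57% of all 35116 promoters. In 203 promoters of genes that were induced at 6 h and still high at 24 h in H47_Ctrl it occurred in 6.9%. These 5 promoters belonged to ISG15, IFI6, IFI44L and IFI44, antiviral genes of the interferon response, the last with 2 overlapping promoters. Sequences of these 4 genes are shown because they held the element and all 4 rose at 24 h in the 3 groups of cells tested. Each is given 5′ to 3′ on the gene's strand, with the bases that match the element on either strand in capitals. The promoters of SAMHD1, STAT2, HERC6 and IFI35, further interferon-stimulated genes that rose in these 3 groups, held no match. ISG15 at chr1:1013247-1013546 (plus strand) held 2 overlapping matches starting 113 and 107 bases before the start site. IFI6 at chr1:27672143-27672442 (minus strand) held 3, starting 156, 115 and 93 bases before it, and IFI44L at chr1:78620198-78620497 (plus strand) held 2, starting 164 and 73 bases before it. IFI44 at chr1:78649539-78649838 (plus strand) held 1, starting 18 bases before it.
ISG15: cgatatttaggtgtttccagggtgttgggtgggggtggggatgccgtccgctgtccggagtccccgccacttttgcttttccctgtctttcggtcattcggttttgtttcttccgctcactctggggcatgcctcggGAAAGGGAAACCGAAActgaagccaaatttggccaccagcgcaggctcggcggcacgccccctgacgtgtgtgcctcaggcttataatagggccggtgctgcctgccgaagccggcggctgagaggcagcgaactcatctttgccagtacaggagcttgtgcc
IFI6: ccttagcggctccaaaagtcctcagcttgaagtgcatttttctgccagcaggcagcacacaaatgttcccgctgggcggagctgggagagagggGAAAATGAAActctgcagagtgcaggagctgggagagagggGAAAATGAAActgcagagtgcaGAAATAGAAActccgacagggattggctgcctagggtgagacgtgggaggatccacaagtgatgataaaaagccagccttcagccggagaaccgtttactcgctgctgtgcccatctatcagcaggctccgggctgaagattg
IFI44L: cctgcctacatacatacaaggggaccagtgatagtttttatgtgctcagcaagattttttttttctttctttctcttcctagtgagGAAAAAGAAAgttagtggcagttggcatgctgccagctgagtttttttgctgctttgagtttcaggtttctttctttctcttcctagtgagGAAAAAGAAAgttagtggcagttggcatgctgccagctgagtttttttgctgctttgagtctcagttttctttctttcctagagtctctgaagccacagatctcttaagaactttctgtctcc
IFI44: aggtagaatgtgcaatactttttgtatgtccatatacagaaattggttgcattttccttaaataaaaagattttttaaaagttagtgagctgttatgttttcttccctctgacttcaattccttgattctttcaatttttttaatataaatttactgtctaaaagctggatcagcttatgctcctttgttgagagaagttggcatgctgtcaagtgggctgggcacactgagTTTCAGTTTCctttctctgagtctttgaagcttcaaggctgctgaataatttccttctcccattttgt

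Of the other motifs searched on both strands, AP-1 sites (TGANTCA) occurred in 2.13% of the 47 promoters against 5.21% of those of tested genes, NF-κB-like stretches (GGG, any 5 bases, then CC) in 63.8% against 71.7%, SMAD elements (CAGAC) in 40.4% against 43.3%, TEAD elements (GGAATG) in 10.6% against 11.4%, CCAAT in 40.4% against 35% and the E-box CACGTG in 2.13% against 9.38%. TATAAA occurred in 14.9% against 6.24%, and 11.5% of all promoters in the table held it. In the 203 promoters of early and lasting genes TATAAA occurred in 12.3%, AP-1 sites in 8.87%, NF-κB-like stretches in 75.4%, SMAD elements in 52.2%, TEAD elements in 12.3%, CCAAT in 32% and the E-box in 6.9%. A match in such a window is a description of its letters and no evidence of binding. Some of the genes lay close together: IFI44L and IFI44 were separated by 3644 bases on chromosome 1, STEAP1 and STEAP2 by 46913 bases on chromosome 7, and HLA-C and HLA-B by 81783 bases on chromosome 6.

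In H47_Ctrl the 45 genes together took 1.15% ± 0.222 of all counts at 0 h, 1.10% ± 0.117 at 6 h, 2.14% ± 0.227 at 12 h and 3.48% ± 0.350 at 24 h (SD, n = 3). Per length the highest at 24 h were THBS1 at 5015 ± 327 TPM and IGFBP3 at 4838 ± 531 TPM, which encode a matricellular glycoprotein and a binding protein of insulin-like growth factors. HLA-B and HLA-C, the heavy chains of MHC class I, followed at 2690.3 ± 1001 and 1567 ± 771 TPM, and IFI6, a mitochondrial and endoplasmic reticulum protein induced by interferon, at 729.6 ± 193 TPM. At the 24 h limit the nearest genes inside were CCDC144B (6.37 CPM) and PTPRR (6.4 CPM), and the nearest outside were TMEM189-UBE2V1 (4.99 CPM) and SHROOM2 (4.74 CPM). At the limit on the rise GBP2 (2.00 times) and ZNF281 (2.02 times) were inside and KRT80 (1.99 times) was outside, with CDK2AP2 just under 2 times. At the 6 h limit P4HA2-AS1 (1.22 times) and GBP2 (1.24 times) were inside, FTH1P3 was just over the limit and FILIP1L (1.27 times) was outside.

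**Figure D1:**
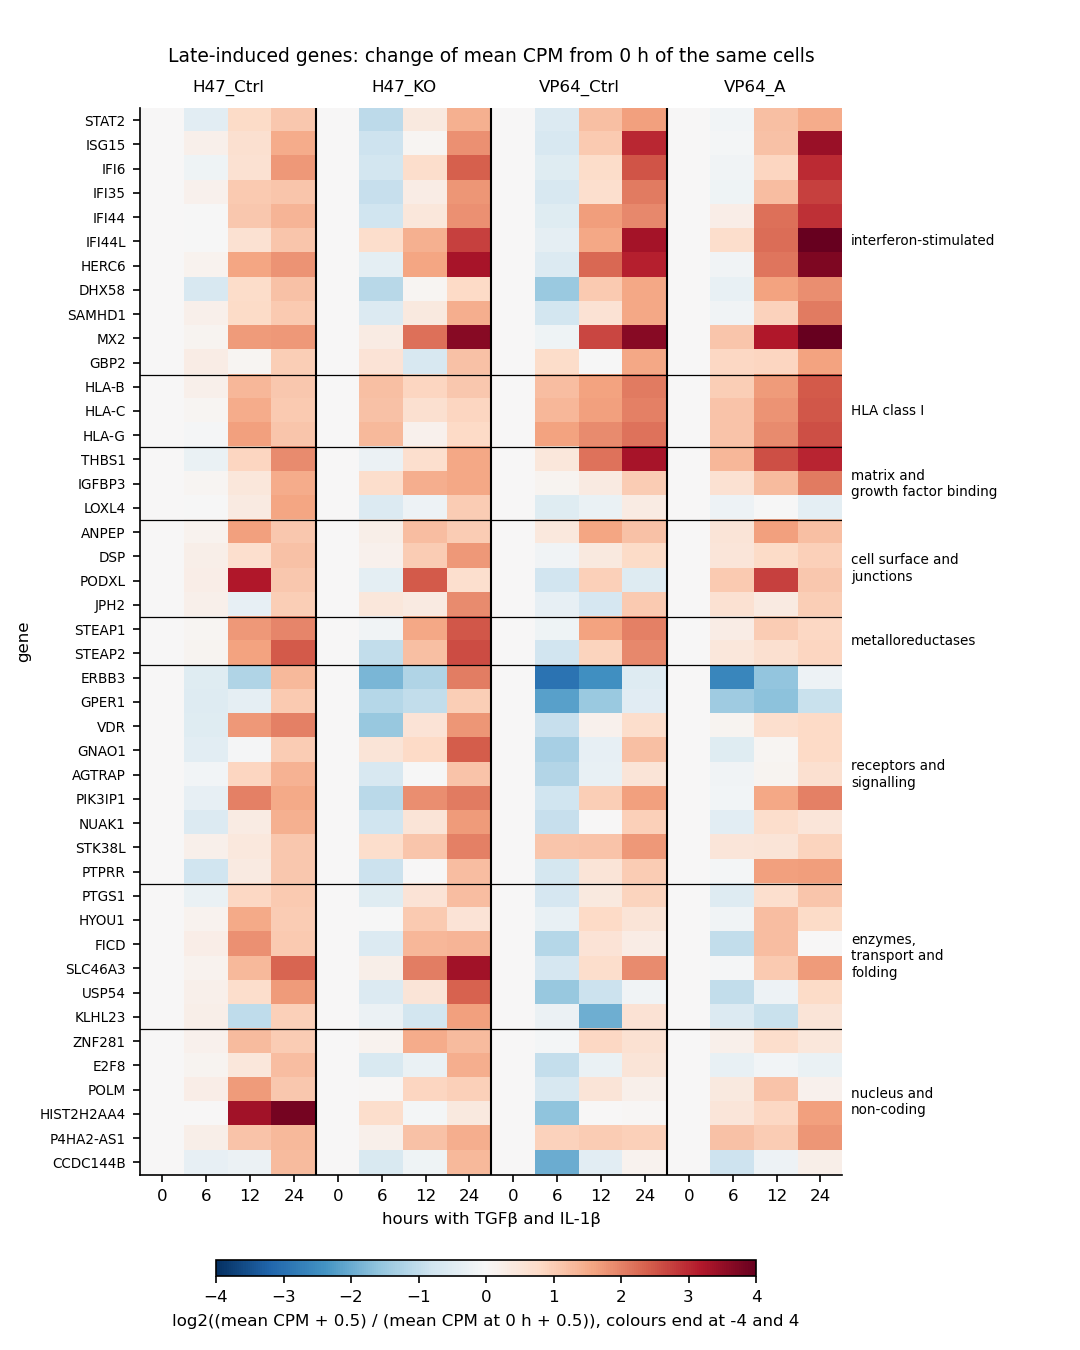
Heat map of 44 of the late-induced genes (rows, grouped by role) in the 4 groups of cells at 0, 6, 12 and 24 h with TGFβ and IL-1β (columns). Colour is the log2 ratio of the mean CPM of 3 libraries to that of the same cells at 0 h, with 0.5 CPM added to both, and is capped at 4 in either direction. The 24 h columns are red for most genes in all 4 groups, HLA class I rows are already red at 6 h in the 3 groups other than H47_Ctrl, and the ERBB3 and GPER1 rows are blue at 6 h.

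VP64_Ctrl cells, whose libraries took no part in choosing the genes, show how far the late rise was seen elsewhere. All 45 genes passed the filter on low counts in both arms. At 24 h against 0 h 36 of the 45 rose and 0 fell in VP64_Ctrl, at an adjusted p under 0.05 in edgeR's quasi-likelihood test over all 10980 genes tested. Of all genes tested 10.4% rose and 5.57% fell, and the median log2 fold change was 1.62 for the late-induced genes and -0.0019 for all genes. Without TMM 29 of the 45 rose and 0 fell, where 4.38% of all genes rose and 21.3% fell. In 32 of the 45 every 24 h library was above every 0 h library in CPM, which held for 5.8% of genes tested.

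The interferon-stimulated genes were the largest role among the 45, with 12 members, and all 12 rose at 24 h in VP64_Ctrl. Roles were assigned after the genes were known. Their log2 fold changes lay between 1.97 and 4.37 with a median of 2.75, and all 12 also rose without TMM. STAT2, a transcription factor of type I interferon signalling, stood at 21.3, 30.6 and 28.4 CPM at 0 h, 17, 17.8 and 20.2 CPM at 6 h, 68, 71.1 and 49 CPM at 12 h and 90.5, 77.5 and 84.7 CPM at 24 h in the 3 VP64_Ctrl libraries per time. In CPM every 6 h library was below every 0 h library, and every 12 h and 24 h library was above them. With TMM no fall was called in edgeR's test, with a log2 fold change at 6 h against 0 h of 0.133, adjusted p = 0.658. Its log2 fold change at 24 h against 0 h was 2.06 ± 0.19 SE, adjusted p = 2.44e-10.

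ISG15, a ubiquitin-like protein that is conjugated to other proteins, showed the same order of times, with 64.2, 106 and 177 CPM at 0 h, 74.2, 86.6 and 61.6 CPM at 6 h, 303, 233 and 185 CPM at 12 h and 1144, 792 and 887 CPM at 24 h in VP64_Ctrl. In CPM the 6 h libraries lay among the 0 h libraries or below them, and all 12 h libraries lay above. With TMM the log2 fold change in edgeR's test was 0.169, adjusted p = 0.633 at 6 h and 3.53 ± 0.26 SE, adjusted p = 1.50e-12 at 24 h. IFI6 stood at 325, 457 and 457 CPM at 0 h, 256, 313 and 309 CPM at 6 h and 2705, 2492 and 1876 CPM at 24 h. In CPM every 6 h library was below every 0 h library and every 24 h library above. With TMM no fall of IFI6 was called at 6 h, with a log2 fold change in edgeR's test of 0.259, adjusted p = 0.54. At 24 h it was 2.95 ± 0.31 SE, adjusted p = 8.94e-09. HERC6, a HECT-type E3 ubiquitin ligase, rose from 22.3, 19.4 and 38.5 CPM at 0 h to 142, 137 and 121 CPM at 12 h and 279, 223 and 207 CPM at 24 h (log2 fold change at 24 h 3.66 ± 0.23 SE, adjusted p = 4.97e-14). MX2, a dynamin-like GTPase that restricts viruses, had the highest log2 fold change of the 45 in VP64_Ctrl, H47_KO and VP64_A. Its levels in VP64_Ctrl were 1.63, 3.21 and 4.96 CPM at 0 h and 55, 36.7 and 48.1 CPM at 24 h, a log2 fold change of 4.37 ± 0.39 SE, adjusted p = 1.69e-10.

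Per length IFI6 reached 5799.5 ± 1069.5 TPM at 24 h in VP64_Ctrl and ISG15 3300.1 ± 548 TPM, above THBS1 for IFI6 and near it for ISG15 (3637 ± 389.7 TPM). In VP64_A, the levels were 5319.9 ± 727 and 3528 ± 791 TPM, and in H47_Ctrl 729.6 ± 193 and 489.6 ± 252 TPM. For each of the 12 interferon-stimulated genes every 24 h library of H47_Ctrl stood below every 24 h library of VP64_Ctrl in CPM. This difference between arms was not tested, since these H47_Ctrl values chose the genes, and the share of all genes with such a gap was not counted. For some of the 12 the gap was present at 0 h, as for IFI6 (81.5, 107 and 73.4 CPM against 325, 457 and 457 CPM). For others the 0 h libraries overlapped, as for MX2 (2.81, 2.93 and 2.07 CPM against 1.63, 3.21 and 4.96 CPM). The H47_Ctrl libraries were spread more widely. HERC6 stood at 9.63, 12.6 and 6.81 CPM at 0 h, 10.5, 11.7 and 9.87 CPM at 6 h, 33.3, 38.2 and 18.7 CPM at 12 h and 25, 21.3 and 58.3 CPM at 24 h, with replicate 3 highest at 24 h and lowest at 12 h. Replicate 3 was also the highest 24 h library of H47_Ctrl for ISG15 (91.4, 106 and 223 CPM), MX2 (7.01, 4.83 and 17.6 CPM) and IFI44L (3.78, 2.82 and 16.2 CPM). For IFI44L the other 24 h libraries overlapped the 0 h libraries (1.78, 3.62 and 4.44 CPM), so its place among the 45 rested on that library.

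IFI44 and IFI44L, neighbouring genes of a family induced by interferon, both rose in VP64_Ctrl, IFI44 from 34.4, 39.3 and 64.1 CPM at 0 h to 202, 148 and 175 CPM at 24 h and IFI44L from 8.26, 8.12 and 23.7 CPM to 159, 120.4 and 136 CPM. The groups did not overlap. The log2 fold change was 2.42 ± 0.18 SE, adjusted p = 3.43e-12 for IFI44, and 3.99 ± 0.26 SE, adjusted p = 1.35e-13 for IFI44L. SAMHD1, which hydrolyses deoxynucleotides and so limits reverse transcription, rose by 2.10 ± 0.19 (SE, log2), and IFI35, a leucine zipper protein, by 2.55 ± 0.21. DHX58, an RNA helicase that tunes the sensing of viral RNA, rose by 2.18 ± 0.35, after 6 h levels of 2.97, 5.29 and 2.58 CPM against 3.8, 9.43 and 19.5 CPM at 0 h. GBP2, a guanylate-binding GTPase, differed from the others of this role in that it was already up at 6 h: it stood at 25.1, 22.9 and 22.5 CPM at 0 h, 32, 39.7 and 46.2 CPM at 6 h, 25.2, 28.8 and 15.5 CPM at 12 h and 78.5, 67.2 and 63.7 CPM at 24 h. All 6 h libraries were above all 0 h libraries, the 12 h libraries overlapped the 0 h libraries, and the log2 fold change was 1.43 ± 0.21 SE, adjusted p = 2.31e-06 at 6 h and 1.97 ± 0.20 SE, adjusted p = 3.21e-09 at 24 h.

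**Figure D2:**
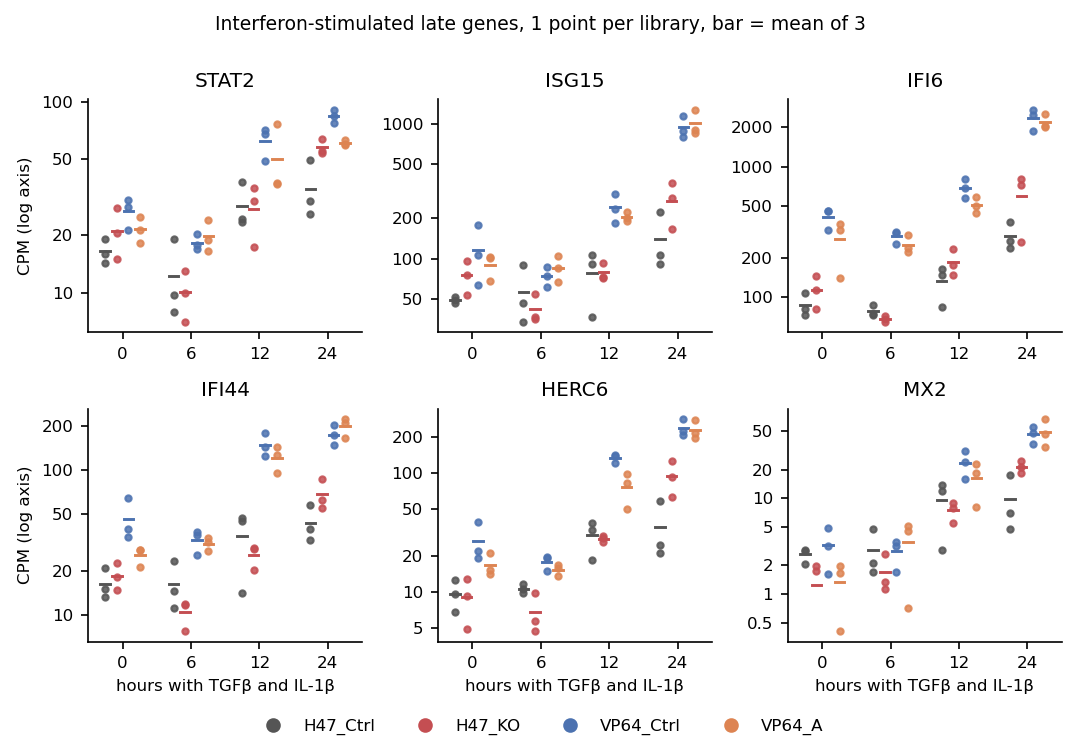
CPM (log axis) of 6 interferon-stimulated late genes against hours with TGFβ and IL-1β in the 4 groups of cells. Points are single libraries, except 1 H47_KO library at 0 h with a count of 0 for MX2 that a log axis cannot show, and bars the mean of 3. For each gene the 24 h libraries of VP64_Ctrl and VP64_A lie above all their 0 h and 6 h libraries, and those of H47_Ctrl lie below those of VP64_Ctrl. The difference between H47_Ctrl and VP64_Ctrl was not tested, and the share of all genes with such a gap was not counted.

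The rise of this role was also seen in the other groups. In H47_KO, 39 of the 45 late-induced genes rose at 24 h against 0 h and 0 fell (of all 10962 genes tested 9.07% rose and 6.78% fell). Without TMM 34 rose and 0 fell (5.68% and 3.32%). Among the 39 were 11 of the 12 interferon-stimulated genes with a median log2 fold change of 1.79. DHX58 was the exception, at 0.90 ± 0.39 with an adjusted p of 0.118. In VP64_A, 34 of the 45 rose and 0 fell (9.0% and 4.55% of all genes tested), and 26 rose and 0 fell without TMM (4.24% and 9.81%). All 12 of this role rose in VP64_A, with a median of 3.17. STAT2 in H47_KO stood at 15.1, 20.5 and 27.8 CPM at 0 h, 13.1, 7.09 and 10.1 CPM at 6 h and 53.8, 64.1 and 55.3 CPM at 24 h (log2 fold change 1.43 ± 0.23 SE, adjusted p = 1.85e-05). In VP64_A it stood at 21.3, 24.9 and 18.3 CPM, 24, 16.6 and 19.1 CPM and 63.4, 60.0 and 59.3 CPM at the same times (log2 fold change 1.81 ± 0.19 SE, adjusted p = 5.80e-09). In CPM every 6 h library of H47_KO was below every 0 h library, and in VP64_A the 6 h and 0 h libraries overlapped. In both groups the 24 h libraries were above all of them. With TMM the log2 fold change of STAT2 at 6 h in edgeR's test was -0.542, adjusted p = 0.146 in H47_KO and 0.112, adjusted p = 0.762 in VP64_A.

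At 6 h 1 of the 12 rose and 0 fell in VP64_Ctrl (GBP2), 1 rose and 0 fell in H47_KO (GBP2) and 2 rose and 0 fell in VP64_A (GBP2 and IFI44L). Of all genes tested 16.2% rose and 12.6% fell in VP64_Ctrl, 13.2% and 10.8% in H47_KO and 11.4% and 5.93% in VP64_A. The IFI44L call was lost without VP64_A 0 h replicate 2 or 3 or 6 h replicate 1 or 3 (0.82 to 0.89). Without TMM 1 rose and 5 fell in VP64_Ctrl, 0 rose and 5 fell in H47_KO, and 1 rose and 0 fell in VP64_A. On that scale 5.15% of all genes tested rose and 51.4% fell in VP64_Ctrl, 5.06% and 32.3% in H47_KO and 5.97% and 7.99% in VP64_A. Between 6 and 24 h in VP64_Ctrl 11 of the 12 rose, where 8.98% of all genes tested rose. GBP2 was at 0.54 ± 0.20 with an adjusted p of 0.0539.

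A list of 31 interferon-stimulated genes, of which 8 are among the 45, holds further genes of this pathway. It was written with earlier results of these data known, so its direction is not independent evidence. At 24 h all 29 of its tested genes rose in VP64_Ctrl (median log2 fold change 3.36) and in VP64_A (3.80), and 21 of 27 rose in H47_KO (1.91). Of all genes tested 10.4%, 9.0% and 9.07% rose in these groups. At 6 h, with TMM, 14 of 29 rose in VP64_Ctrl, 18 of 29 in VP64_A and 7 of 27 in H47_KO, and 0 fell in any of the 3. Of all genes tested 16.2%, 11.4% and 13.2% rose at 6 h in these groups. The list was not counted without TMM. IRF1, a transcription factor of the interferon response that is no member, had already risen at 6 h, by 3.88 (log2) in VP64_Ctrl and 3.14 in H47_KO, and stood at 3.36 and 1.38 at 24 h. Genes for interferons themselves were at or near 0: IFNB1 reached at most 3 counts and IFNA1 at most 7 counts in a library. IFNE, an interferon of epithelia, also reached at most 7 counts (1.93 CPM) and was above 0 in 10 of the 12 VP64_Ctrl libraries. IFNG, IFNK and IFNL1 to IFNL3 had 0 counts in all 48 libraries, which allows up to 3 counts in a library, or 1.29 CPM at the lowest total (counting error only). The receptor genes IFNAR1, IFNAR2 and IFNGR1 were detected in all 48 libraries, with medians per group between 26.7 and 58.4 CPM.

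HLA-B, HLA-C and HLA-G encode heavy chains of MHC class I, which present peptides at the cell surface. Reads of these genes are hard to separate from each other and from further class I genes, so their values are less certain than those of the other members. None of the 3 met the limits of the rule in another group. HLA-B in H47_Ctrl stood at 1138, 991 and 1378 CPM at 0 h, 1300.3, 1173 and 1556 CPM at 6 h, 3023, 3230.0 and 2526 CPM at 12 h and 1464, 3115 and 2789 CPM at 24 h, with replicate 1 lowest at 24 h. In VP64_Ctrl it stood at 1056, 1249 and 1068 CPM at 0 h, 1344, 2999 and 3673 CPM at 6 h and 5037, 5612 and 3639 CPM at 24 h. There all 6 h libraries were above all 0 h libraries, and the log2 fold change was 2.03 ± 0.40 SE, adjusted p = 2.62e-04 at 6 h and 2.50 ± 0.41 SE, adjusted p = 2.50e-05 at 24 h.

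All 3 HLA genes rose at 6 h in VP64_Ctrl and in H47_KO, and HLA-B and HLA-C did so in VP64_A, on both scales. In H47_KO the HLA-C call was lost without 0 h replicate 3 or 6 h replicate 2 (1.22 to 1.35) and the HLA-G call without 0 h replicate 2 or 3 or 6 h replicate 2 (1.23 to 1.63). In VP64_A the HLA-B call was lost without 0 h replicate 1 or 3 or 6 h replicate 3 (0.89 to 1.26), and the HLA-C call without these or 6 h replicate 2 (1.02 to 1.43). At 24 h all 3 rose in VP64_Ctrl and VP64_A and 0 of 3 in H47_KO, where HLA-B was at 0.98 ± 0.39 with an adjusted p of 0.0934. The 24 h libraries of H47_KO were spread widely for HLA-B (1658, 3526 and 1179 CPM), as were those for HLA-C (818, 2572 and 647 CPM), with replicate 2 highest for both. Without TMM HLA-B passed in H47_KO at 1.08 with an adjusted p of 0.00740. Whether the 6 h change in H47_Ctrl differed from that in the other groups was not tested, since the 6 h value of H47_Ctrl was used in the choice.

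THBS1, which binds matrix and can activate latent TGFβ, had the highest CPM of the 45 in every group at 24 h except VP64_A. In H47_Ctrl it stood at 7186, 4604 and 3971 CPM at 0 h, 4078, 4115 and 5034 CPM at 6 h, 7544, 9397 and 11388 CPM at 12 h and 18703, 21032 and 18398 CPM at 24 h. VP64_Ctrl started lower, at 1498, 1129 and 1868 CPM at 0 h, and reached 1702, 2148 and 2351 CPM at 6 h, 6953, 5614 and 7743 CPM at 12 h and 13388, 14282 and 16398 CPM at 24 h. All 12 h and 24 h libraries were above all earlier ones, and the log2 fold change at 24 h was 3.75 ± 0.32 SE, adjusted p = 8.19e-11. At 6 h it had risen by 1.27 ± 0.29 with TMM (adjusted p = 0.00141) and by 0.46 without it (adjusted p = 0.0211), so that in VP64_Ctrl THBS1 was not silent at 6 h, although the CPM of 1 of 3 libraries at 6 h lay within the 0 h range.

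IGFBP3 stood at 1321, 1198 and 1936 CPM at 0 h and 2855, 3156 and 3068 CPM at 24 h in VP64_Ctrl (log2 fold change 1.49 ± 0.26 SE, adjusted p = 8.28e-05) and at 1677, 1888 and 1916 CPM and 5734, 6229.6 and 4153 CPM in H47_KO (log2 fold change 1.54 ± 0.34 SE, adjusted p = 0.00156). Its groups did not overlap in either. LOXL4, a lysyl oxidase-like enzyme that crosslinks collagen and elastin, rose from 109, 141 and 173 CPM to 274, 313 and 276 CPM in H47_KO (1.01 ± 0.19 SE, adjusted p = 1.48e-04), and more weakly in VP64_Ctrl (0.77 ± 0.17 SE, adjusted p = 0.00136). In VP64_A it stood at 110.1, 112 and 90.8 CPM at 0 h and 82.5, 81.4 and 74.3 CPM at 24 h, with a log2 fold change of -0.08 ± 0.17 SE, adjusted p = 0.826. Without TMM LOXL4 in VP64_Ctrl was at 0.34 with an adjusted p of 0.181.

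Among genes of the cell surface and junctions PODXL, a sialomucin of the cell surface, peaked at 12 h. In H47_Ctrl it stood at 13, 7.07 and 7.4 CPM at 0 h, 12.1, 10.8 and 10.3 CPM at 6 h, 98.7, 96.6 and 67.6 CPM at 12 h and 16.7, 19.3 and 23.3 CPM at 24 h. In VP64_Ctrl it stood at 60.2, 60.1 and 114 CPM, 49.6, 50.4 and 36.2 CPM, 133, 188 and 135 CPM and 49.7, 49 and 64.7 CPM at these times. The 12 h libraries were above all others in both groups, while 24 h against 0 h gave -0.02 ± 0.17 SE, adjusted p = 0.949 in VP64_Ctrl. In VP64_A it rose by 1.42 ± 0.20 at 24 h. In H47_KO it rose by 0.66 ± 0.20, a call that was lost without 0 h replicate 1 (0.46) or 0 h replicate 2 (0.64).

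ANPEP, an aminopeptidase of the cell surface, was also highest at 12 h, with 549.7 ± 24.8 CPM at 0 h, 729.6 ± 134 CPM at 6 h, 1634 ± 217 CPM at 12 h and 1251 ± 137 CPM at 24 h in VP64_Ctrl (SD, n = 3). It rose at 24 h in the 3 groups tested, by 1.02 to 1.61 (log2), and the call in H47_KO was lost without 0 h replicate 3 (0.82) or 24 h replicate 1 (0.61). DSP, desmoplakin of the desmosome, rose by 1.22 ± 0.15 in VP64_Ctrl and by 1.75 ± 0.19 in H47_KO, where it stood at 85.4, 109 and 155 CPM at 0 h and 391, 353 and 432 CPM at 24 h. JPH2, which ties the plasma membrane to the endoplasmic reticulum, was low and rose from 5.43, 3.21 and 4.96 CPM at 0 h to 8.22, 9.86 and 11.5 CPM at 24 h in VP64_Ctrl (1.53 ± 0.32 SE, adjusted p = 6.19e-04).

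STEAP1 and STEAP2 encode membrane proteins of a metalloreductase family and lie next to each other. STEAP1 in H47_Ctrl stood at 10.6, 12.1 and 12.8 CPM at 0 h, 10.4, 13.4 and 13.5 CPM at 6 h, 53.1, 33.2 and 35.6 CPM at 12 h and 53.3, 39.6 and 49.6 CPM at 24 h. In VP64_Ctrl the values were 11, 7.7 and 14.6 CPM, 13.2, 9.28 and 7.0 CPM, 37.5, 37 and 29.4 CPM and 49.5, 35.9 and 55.3 CPM. In both groups the 6 h libraries overlapped the 0 h libraries, while all 12 h and 24 h libraries stood above them. The log2 fold change at 24 h was 2.56 ± 0.20 SE, adjusted p = 1.13e-11 in VP64_Ctrl and 2.52 ± 0.20 SE, adjusted p = 1.75e-11 in H47_KO. STEAP2 was lower, at 0.978, 0.903 and 5.23 CPM at 0 h and 12.6, 12.6 and 6.18 CPM at 24 h in VP64_Ctrl (2.90 ± 0.51 SE, adjusted p = 6.67e-05). It rose by 2.80 ± 0.36 in H47_KO and did not pass in VP64_A (1.33 ± 0.61, adjusted p = 0.161).

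Of the 9 receptors and signalling genes 7 rose at 24 h in VP64_Ctrl, 9 in H47_KO and 6 in VP64_A, where 10.4%, 9.07% and 9.0% of all genes tested rose. Without TMM the counts were 4, 7 and 2, against 4.38%, 5.68% and 4.24% of all genes tested. PIK3IP1, an inhibitor of PI3 kinase, rose from 5.0, 3.71 and 9.36 CPM at 0 h to 18.5, 20.7 and 20.3 CPM at 24 h in VP64_Ctrl (2.25 ± 0.28 SE, adjusted p = 1.81e-07) and by 2.07 ± 0.24 in H47_KO. VDR, the vitamin D receptor, stood at 3.7, 2.24 and 1.48 CPM at 0 h and 9.89, 12.9 and 11.5 CPM at 24 h in H47_Ctrl, and rose by 1.42 ± 0.33 in VP64_Ctrl. GNAO1, a G protein subunit, rose by 1.77 ± 0.33 in VP64_Ctrl and by 2.47 ± 0.37 in H47_KO. STK38L and NUAK1, both kinases, rose by 2.14 ± 0.44 and 1.49 ± 0.30 in VP64_Ctrl, STK38L already by 1.85 ± 0.46 at 6 h. AGTRAP, which binds the angiotensin receptor, rose in the 3 groups tested by 0.91 to 1.07. PTPRR, a tyrosine phosphatase, rose in the 3 groups by 1.30 to 2.06, and its call was lost in VP64_Ctrl without 0 h replicate 2 (1.44) and in H47_KO without any 1 of 4 libraries (1.02 to 1.32).

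ERBB3, a receptor of neuregulins, and GPER1, a G protein-coupled receptor that responds to oestrogen, dipped before they returned. ERBB3 in VP64_Ctrl stood at 15.5, 20.7 and 42.9 CPM at 0 h, 3.11, 3.18 and 2.58 CPM at 6 h, 6.75, 3.56 and 2.95 CPM at 12 h and 17.2, 16.7 and 21.3 CPM at 24 h. In H47_KO it stood at 5.26, 4.83 and 4.54 CPM, 1.16, 1.01 and 0.862 CPM, 1.27, 1.54 and 2.65 CPM and 12.5, 21.7 and 31.4 CPM at these times. All 6 h and 12 h libraries were below all 0 h libraries in both groups. The log2 fold change at 6 h was -2.33 ± 0.39 SE, adjusted p = 2.94e-05 in VP64_Ctrl, -1.79 ± 0.53 SE, adjusted p = 0.0125 in H47_KO and -2.58 ± 0.40 SE, adjusted p = 9.14e-06 in VP64_A. At 24 h ERBB3 was above 0 h in H47_KO (2.00 ± 0.34 SE, adjusted p = 5.69e-05), while the difference was 0.01 ± 0.31 SE, adjusted p = 0.988 in VP64_Ctrl, where the 0 h level was higher. GPER1 fell at 6 h in VP64_Ctrl (-1.55 ± 0.32) and in VP64_A (-1.24 ± 0.29), rose at 24 h in H47_KO (0.96 ± 0.28 SE, adjusted p = 0.0141) and did not pass in VP64_Ctrl (0.03 ± 0.27) or VP64_A (-0.60 ± 0.28). The 24 h call of GPER1 in H47_KO was lost without 0 h replicate 2 (0.81) or 24 h replicate 2 (0.79), and the 6 h call of ERBB3 in H47_KO without 6 h replicate 3 (-1.58).

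Of the 6 enzymes and genes of transport and folding SLC46A3, a lysosomal transporter, had the highest change. It stood at 2.89, 5.13 and 3.75 CPM at 0 h and 32.4, 44.5 and 56.8 CPM at 24 h in H47_KO (3.37 ± 0.29 SE, adjusted p = 1.08e-10) and at 5.54, 2.21 and 5.51 CPM and 14.2, 22.4 and 16.2 CPM in VP64_Ctrl (2.43 ± 0.29 SE, adjusted p = 1.06e-07). PTGS1, the constitutive cyclooxygenase, stood at 59.5, 59.9 and 57.8 CPM at 0 h, 43.1, 36.8 and 31 CPM at 6 h and 97.6, 119 and 114 CPM at 24 h in VP64_Ctrl. In CPM its 6 h libraries were all below its 0 h libraries, but with TMM it was not among the genes called as falling at 6 h in VP64_Ctrl. PTGS1 rose in the 3 groups tested by 1.21 to 1.45 at 24 h. HYOU1, an endoplasmic reticulum chaperone, and FICD, which modifies the chaperone BiP, were highest at 12 h in H47_Ctrl and VP64_Ctrl. In VP64_Ctrl HYOU1 rose by 1.45 ± 0.23 at 12 h and 1.01 ± 0.23 at 24 h, and FICD by 1.15 ± 0.24 and 0.73 ± 0.24. The 24 h call of FICD was lost without any 1 of 4 libraries, all of 0 h and replicate 3 of 24 h (0.40 to 0.78). USP54, related to ubiquitin proteases, and KLHL23, a Kelch-like protein, did not pass at 24 h in VP64_Ctrl, at 0.31 ± 0.33 and 1.12 ± 0.51, and rose in H47_KO by 2.36 ± 0.36 and 1.86 ± 0.59. The H47_KO call of KLHL23 was lost without 0 h replicate 2 (1.27) or 24 h replicate 3 (1.86).

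The remaining 6 genes were nuclear or non-coding. ZNF281, a zinc finger transcription factor, was highest at 12 h in all 4 groups and rose at 24 h in the 3 groups tested by 0.77 to 1.24. E2F8, a repressor of cell cycle genes, and POLM, a DNA polymerase of end joining, rose in H47_KO among the 3, at 1.53 ± 0.36 and 0.94 ± 0.26, the latter lost without 0 h replicate 1 (0.84). No test of a difference between H47_KO and the other groups was made. P4HA2-AS1 rose in all 3 by 1.38 to 2.42, and its call in VP64_Ctrl was lost without any 1 of 4 libraries (1.09 to 1.31). Because the library kit does not mark strand, its reads cannot be told apart from those of overlapping genes. HIST2H2AA4, a histone H2A gene with a near-identical copy, was at 0 counts in all H47_Ctrl libraries at 0 h and 6 h and at 14.2, 0 and 5.64 CPM at 24 h. It rose in none of the 3 groups, and its counts cannot be separated from those of its copy. CCDC144B, a pseudogene, rose in H47_KO (1.43 ± 0.40 SE, adjusted p = 0.0105), except without 0 h replicate 2 (1.13), and was at 0.77 ± 0.60 in VP64_Ctrl.

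The low 6 h level that the rule asked for was not met everywhere. In VP64_Ctrl 12 of the 45 rose and 4 fell at 6 h against 0 h, where 16.2% of all genes tested rose and 12.6% fell. Without TMM 7 rose and 15 fell, against 5.15% and 51.4% of all genes, together 56.6%. The 12 that rose with TMM were HLA-B, HLA-C, HLA-G, STK38L, P4HA2-AS1, GBP2, THBS1, ANPEP, IGFBP3, ZNF281, STEAP1 and DSP, and the last 3 of them were at -0.07, -0.10 and -0.13 without it. The 4 that fell were CCDC144B, ERBB3, GPER1 and USP54. In H47_KO 8 rose and 2 fell (13.2% and 10.8% of all genes), and 4 rose and 10 fell without TMM (5.06% and 32.3%). Without H47_KO 6 h replicate 2 the H47_KO calls numbered 6 in place of 10. In VP64_A 10 rose and 2 fell (11.4% and 5.93%), and 8 rose and 3 fell without TMM (5.97% and 7.99%). With any 1 library left out, 12 of the 16 calls at 6 h in VP64_Ctrl, 5 of the 10 in H47_KO and 7 of the 12 in VP64_A held. IGFBP3, HLA-B, HLA-C, DSP and GBP2 rose at 6 h in all 3 groups with TMM, as did 7.44% of the genes tested in both arms. The IGFBP3 call was lost in VP64_Ctrl without 6 h replicate 3 (0.72), in H47_KO without 6 h replicate 2 (0.93) and in VP64_A without 0 h replicate 1 or 2 or 6 h replicate 2 or 3 (0.74 to 0.86). Without TMM DSP passed in none of them, at -0.13, 0.18 and 0.51 in VP64_Ctrl, H47_KO and VP64_A.

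**Figure D3:**
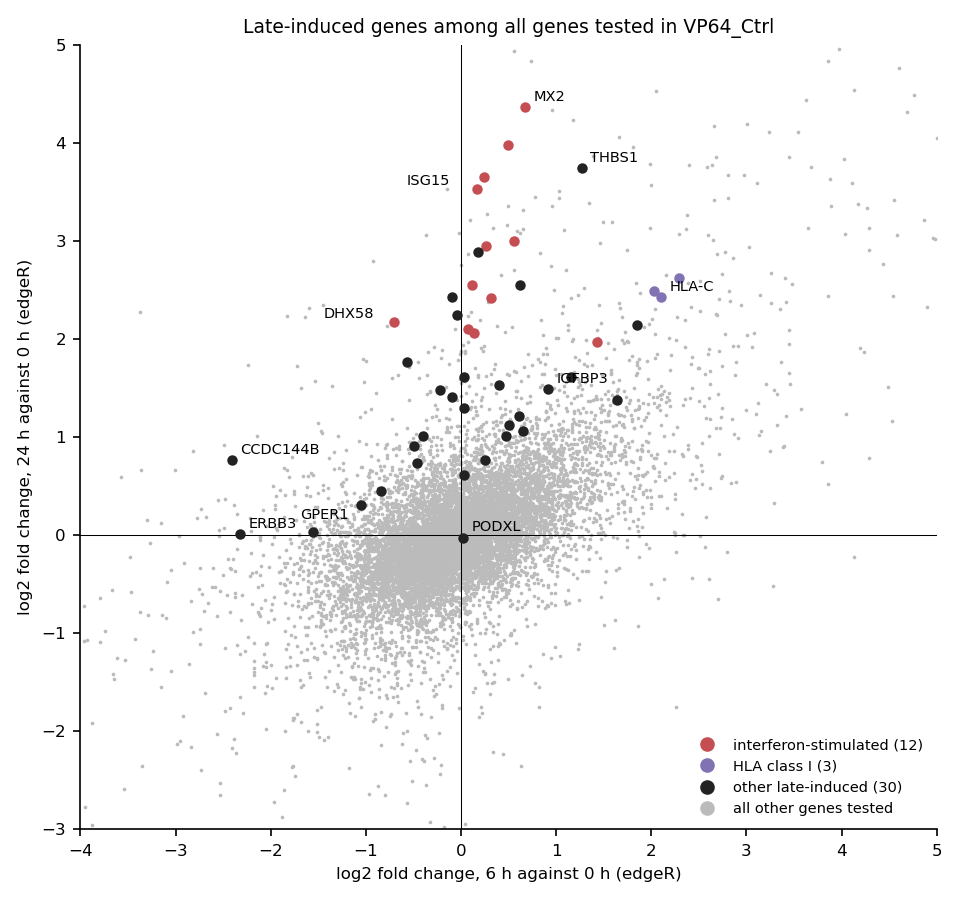
log2 fold change at 24 h against 0 h (vertical axis) and at 6 h against 0 h (horizontal axis) from edgeR in VP64_Ctrl, 1 point per gene for 10980 genes tested, of which 110 lie outside the axes. Interferon-stimulated late genes (red) rise along the vertical axis with little change at 6 h, HLA class I genes (purple) lie to the right, and ERBB3, GPER1 and CCDC144B lie to the left.

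From 6 to 24 h in VP64_Ctrl 31 of the 45 rose and 0 fell, where 8.98% of all genes tested rose and 9.45% fell. Without TMM 37 rose and 0 fell (12.5% and 3.83%). With any 1 library left out 24 of the 31 calls held. For comparison, 170 genes met the same 24 h limits in H47_Ctrl but stood at least 2 times above 0 h at 6 h already. Of these, 167 were tested in the CRISPRa arm, and 35 rose and 62 fell from 6 to 24 h, with a median log2 change of -0.403 against 1.51 for the late-induced genes. With TMM 150 of the 167 rose at 24 h against 0 h and 147 at 6 h, where 10.4% and 16.2% of all genes tested rose. The 18 tested genes of a list of primary NF-κB response genes, none of them a member, all rose at 6 h in VP64_Ctrl with TMM. Their median log2 fold change was 5.22, and 16.2% of all genes tested rose. No test of the difference between these sets was made.

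At 12 h 32 of the 45 rose and 3 fell in VP64_Ctrl, where 15.3% of all genes tested rose and 11.5% fell. Without TMM 24 rose and 3 fell (5.18% and 41.4%). The 3 that fell were KLHL23 at -2.75 ± 0.82, ERBB3 at -1.84 ± 0.36 and GPER1 at -0.80 ± 0.29. The call of KLHL23 was lost without 12 h replicate 2 (-2.12) and that of GPER1 without 0 h replicate 3 (-0.61), 12 h replicate 1 (-0.85) or 12 h replicate 2 (-0.62). Mean CPM was highest at 24 h in all 4 groups for 26 of the 45, ISG15, IFI6, MX2, THBS1 and IGFBP3 among them. It was highest at 12 h in all 4 groups for ANPEP, ZNF281, HYOU1 and PODXL. In H47_Ctrl 10 of the 45 were highest at 12 h.

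Across groups 27 of the 45 rose at 24 h in each of VP64_Ctrl, H47_KO and VP64_A, 11 in exactly 2 of these, 6 in exactly 1 and HIST2H2AA4 in none. Of the 10691 genes tested in both arms 4.21% rose in all 3. These contrasts share no libraries, and both groups of the CRISPRa arm share 1 estimate of the spread. With any 1 library left out, 33 of the 36 calls in VP64_Ctrl, 32 of the 39 in H47_KO and 30 of the 34 in VP64_A held, and those of the interferon-stimulated genes were among them. For 17 genes (0.917% of those tested in both arms) the rise at 24 h in all 3 came without a rise at 6 h in any with TMM, among them IFI6, PTGS1, ISG15, AGTRAP, IFI44, SAMHD1, STAT2, HERC6, IFI35, SLC46A3, PIK3IP1, GNAO1, VDR, MX2, JPH2 and PTPRR. The 3 limits on mean CPM, applied to each group's own values, were met by 29 of the 45 in H47_KO, 20 in VP64_Ctrl and 13 in VP64_A. Of all genes they were met by 266, 101 and 58 in these groups. The limits were met in all 4 groups by 11 genes, among them STAT2, IFI6, ISG15, IFI44, IFI35, SAMHD1, HERC6, SLC46A3, PIK3IP1 and PTPRR. They were met in H47_Ctrl alone by 10, namely HLA-B, HLA-C, HLA-G, GBP2, HYOU1, PODXL, GPER1, STK38L, POLM and HIST2H2AA4. Every 24 h library was above every 0 h library for 36 of the 45 in H47_KO (8.23% of genes tested) and 34 in VP64_A (8.72%). In H47_Ctrl this held for 41, which is a description only, since the genes were chosen on these libraries for a higher 24 h mean.

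**Figure D4:**
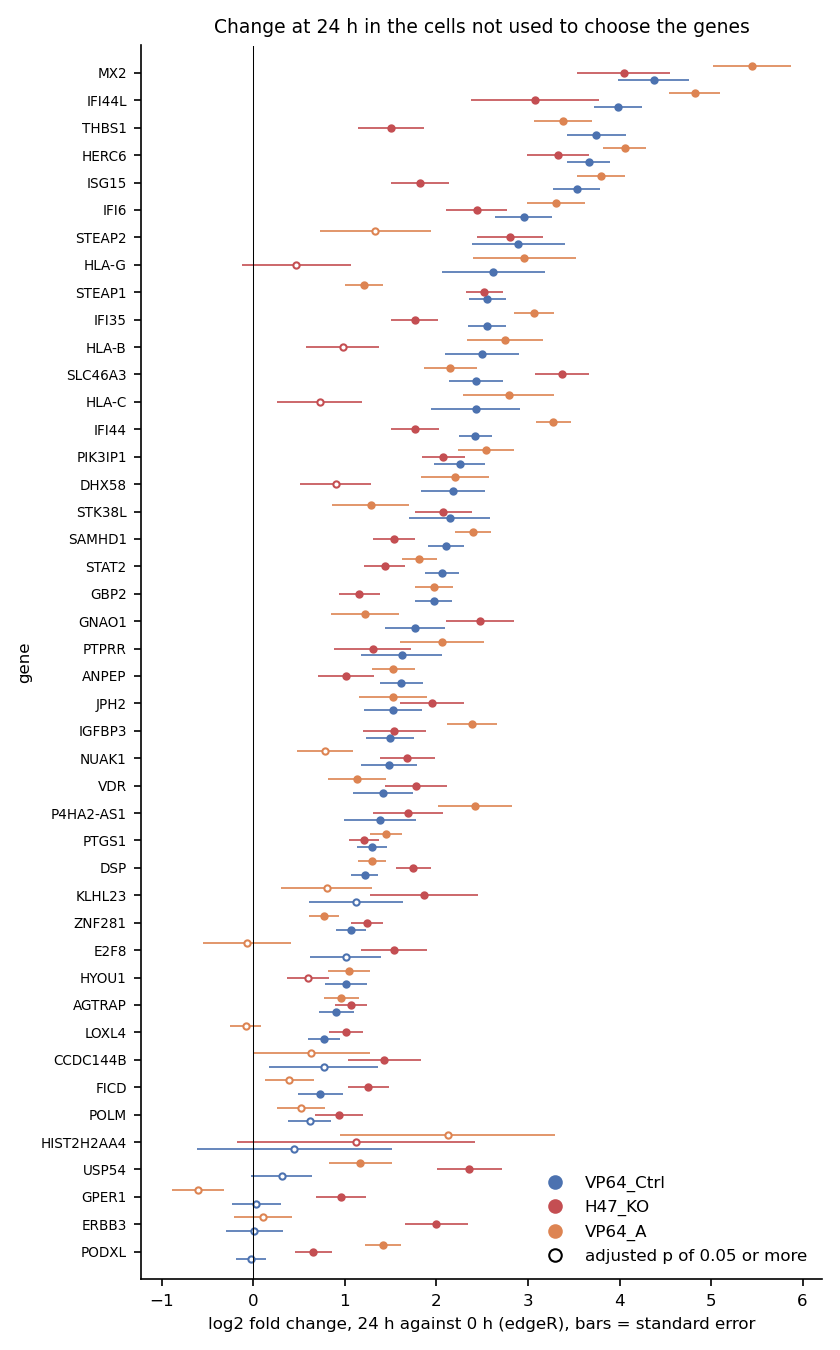
log2 fold change at 24 h against 0 h from edgeR (points) with standard errors (bars) for 44 of the genes in VP64_Ctrl, H47_KO and VP64_A, ordered by the value in VP64_Ctrl. Filled points have an adjusted p under 0.05. Filled points all lie to the right of 0, from 0.66 for PODXL in H47_KO to 5.45 for MX2 in VP64_A.

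VP64_A and VP64_Ctrl were compared at 0 h and 24 h, since neither took part in the choice. At 0 h 2 of the 45 were higher and 4 lower in VP64_A (4.29% and 5.12% of all genes tested), and without TMM 2 were higher and 11 lower (1.63% and 13.8%). LOXL4 (1.28 ± 0.17 SE, adjusted p = 2.54e-06) and IGFBP3 (1.30 ± 0.26 SE, adjusted p = 0.00123) were higher in VP64_A. PODXL (-2.62 ± 0.19 SE, adjusted p = 4.74e-12), PTGS1 (-1.19 ± 0.17 SE, adjusted p = 7.65e-06), JPH2 (-1.11 ± 0.35 SE, adjusted p = 0.0436) and DSP (-0.90 ± 0.15 SE, adjusted p = 1.12e-04) were lower. The call of JPH2 was lost without any 1 of 5 libraries. At 24 h 1 was higher and 9 were lower in VP64_A (1.99% and 2.13% of all genes tested), and the same 10 genes passed without TMM (1.03% and 2.83%). Leaving out 1 library of the 6 gave between 5 and 7 calls: 5 without VP64_A replicate 1 or replicate 3, and 6 without VP64_Ctrl replicate 1 or replicate 2. IGFBP3, PODXL, PTGS1, STEAP1 and DSP passed whichever library was left out, while THBS1, GNAO1 and JPH2 did not pass without any 1 of the 6, STEAP2 without any 1 of 4 and E2F8 without VP64_A replicate 1 or replicate 3.

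IGFBP3 was the gene higher in VP64_A at 24 h, with 11641, 11837 and 11298 CPM against 2855, 3156 and 3068 CPM in VP64_Ctrl, groups that did not overlap (log2 difference 2.19 ± 0.27 SE, adjusted p = 9.96e-07). THBS1 was lower, with 5692, 5872 and 6731 CPM against 13388, 14282 and 16398 CPM (-1.01 ± 0.29 SE, adjusted p = 0.0408). STEAP2 (-2.06 ± 0.52 SE, adjusted p = 0.0137), E2F8 (-1.83 ± 0.45 SE, adjusted p = 0.0119) and GNAO1 (-1.22 ± 0.34 SE, adjusted p = 0.0308) had the most negative differences, at low levels. PODXL, PTGS1, JPH2, STEAP1 and DSP were lower as well, by log2 differences of -1.18, -1.03, -1.11, -0.91 and -0.82. Of the 12 interferon-stimulated genes 0 were called between the groups at 24 h, and their log2 differences lay between -0.60 and 0.57.

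The change from 0 to 24 h itself differed between VP64_A and VP64_Ctrl for 2 of the 45, PODXL and STEAP1, where 0.128% of all genes tested changed more in VP64_A and 0.082% less. The call of PODXL held whichever library was left out, and that of STEAP1 was lost without any 1 of 7 of the 12 libraries (-1.40 to -1.23). STEAP1 rose from 10.9, 10.1 and 13.3 CPM to 22.7, 17.6 and 22.2 CPM in VP64_A, less than in VP64_Ctrl, a difference of -1.35 ± 0.28 SE, adjusted p = 0.0274. Without TMM its difference was -1.23 with an adjusted p of 0.372. PODXL rose from 7.79, 11.8 and 8.69 CPM to 21.8, 22.4 and 16.8 CPM in VP64_A and did not in VP64_Ctrl, a difference of 1.44 ± 0.26 SE, adjusted p = 0.00441. Without TMM PODXL (1.60) and IGFBP3 (1.04, adjusted p = 0.0102) passed and 0 were lower (0.191% and 0.0182% of all genes tested).

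**Figure D5:**
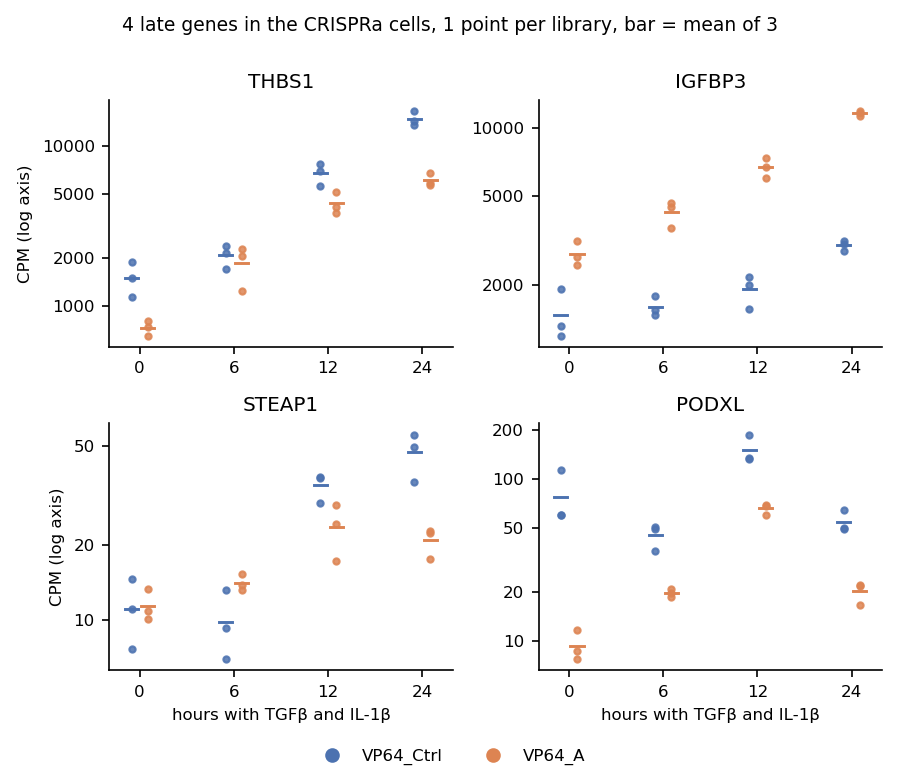
CPM (log axis) of THBS1, IGFBP3, STEAP1 and PODXL against hours with TGFβ and IL-1β in VP64_Ctrl and VP64_A. Points are single libraries and bars the mean of 3. At 24 h VP64_A lies above VP64_Ctrl for IGFBP3 and below it for the other 3 genes, and PODXL differs from 0 h on.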

How the data were processed

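The authors removed low-quality reads, adaptors and ribosomal RNA (Trim Galore, SortMeRNA), aligned with STAR to GRCh38, and deposited estimated counts and TPM per gene from Salmon, with versions not given in the sources used here. Libraries were made with Nextera XT, which does not mark strand, and the strand setting of the counting is not given in the sources used here. Salmon shares reads between near-identical genes, so HLA-B, HLA-C, HLA-G and HIST2H2AA4 are uncertain, and the reads of P4HA2-AS1 cannot be told apart from those of P4HA2.

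Of the deposited estimated counts 6.38% were not whole and were rounded for the tests. The members, roles and gene lists were chosen with earlier results of these data known. The rule for named genes took members that rose at 24 h in all 3 groups tested (at most 15) or met the limits in VP64_Ctrl (10), members that fell at 24 h in VP64_Ctrl, the calls between VP64_A and VP64_Ctrl at 24 h (5 in each direction) and in the interaction, members that rose at 6 h in VP64_Ctrl (5), the 5 with the highest TPM in H47_Ctrl at 24 h, the genes beside each limit, and members of a list. The other members were named after their values were seen, and roles were assigned after the genes were known. For each arm the 24 libraries in 8 groups were fitted with edgeR 4.0.16 (R 4.3.3), with filterByExpr, TMM scaling and the quasi-likelihood F test, two-sided, and p-values were adjusted by Benjamini-Hochberg over all genes tested (10962 in the knockout arm, 10980 in the CRISPRa arm), with calls at 0.05. SE is the absolute log2 fold change divided by the square root of F. Levels are CPM of the deposited counts, tables were read with pandas 2.3.3 in Python 3.11.15, and intervals and floors cover counting error only. Library totals of 2321990 to 10661004 set the precision, the lowest giving a floor of 1.29 CPM for a count of 0.

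Of 48 pairs of libraries of the same condition 0 were identical, and every pair differed by more than sampling noise (lowest chi-square per degree of freedom 3.80). The steps were tested on simulated data: for 24 h against 0 h in H47_KO, over 10962 genes, known changes were recovered for 64% of genes set to a log2 change of 1 and for 95% at a log2 change of 2, and 3.05% of the calls were false. For VP64_Ctrl, over 10980 genes, these were 59%, 93% and 5%. As alternatives, DESeq2 1.42.0 and its size factors within edgeR were run, as were fits without the filter, on the compared libraries alone and with the replicate number as a block. TPM were tested with limma 3.58.1 after adding 1 or 0.1 and taking log2. Each library was left out in turn, and the limits of the rule were varied. The values of 1 member are not reported here, though counts include it. Library totals without TMM were chosen after seeing the data.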

Additional observations from a re-analysis of the deposited data

Results flagged for a closer look

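Of the 45 late-induced genes 2 had a change from 0 to 24 h that differed between VP64_A and VP64_Ctrl by the test of the difference itself (the interaction term in edgeR). For PODXL the change was higher in VP64_A by 1.44 (log2; adjusted p = 0.00441): it stood at 60.2, 60.1 and 114 CPM at 0 h and 49.7, 49 and 64.7 CPM at 24 h in VP64_Ctrl, and at 7.79, 11.8 and 8.69 CPM and 21.8, 22.4 and 16.8 CPM in VP64_A. For STEAP1 the change was lower in VP64_A, with a difference of -1.35 (log2; adjusted p = 0.0274): it stood at 11, 7.7 and 14.6 CPM at 0 h and 49.5, 35.9 and 55.3 CPM at 24 h in VP64_Ctrl, and at 10.9, 10.1 and 13.3 CPM and 22.7, 17.6 and 22.2 CPM in VP64_A. With library totals the difference of PODXL was 1.60 and still passed, and that of STEAP1 was -1.23 with an adjusted p of 0.372.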

How the results depend on the processing

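The set of 45 depended on its limits and scaling. It held 69 genes with TMM-scaled library sizes (38 of the 45 among them), 104 with a 24 h minimum of 1 CPM, 20 with a 6 h limit of 1 times the 0 h mean and 11 with a 24 h limit of 3 times. On TPM it held 50 genes, 30 of them shared. With 1 replicate number left out it held between 35 and 80 genes, 80 without replicate 1. The cause was not tested, other than that a lower or stricter limit takes more or fewer genes by its construction.

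With library totals the balance at 6 h turned from 12 rose and 4 fell to 7 and 15 in VP64_Ctrl, and from 8 and 2 to 4 and 10 in H47_KO. Counts called in either direction that moved by over 1.5 times were 10 (limma on log2(TPM + 1)) and 13 (library totals) between VP64_A and VP64_Ctrl at 0 h, where 6 were called, and 1 in the interaction with limma on either TPM scale, where 2 were called. The cause was not tested. With 1 library left out the calls ranged from 34 to 35 (VP64_Ctrl), 34 to 40 (H47_KO) and 31 to 33 (VP64_A) at 24 h, from 13 to 16, 6 to 11 and 9 to 11 at 6 h, from 31 to 35 at 12 h and from 26 to 30 between 6 and 24 h. Between VP64_A and VP64_Ctrl they ranged from 5 to 7 at 0 h, 5 to 7 at 24 h and 1 to 2 in the interaction. Changes at 6 h in VP64_Ctrl turned negative for DSP (-0.14, -0.15 and -0.13), STEAP1 (-0.17, -0.18 and -0.10) and ZNF281 (-0.0721, -0.0784 and -0.0742) with limma on log2(TPM + 1), limma on log2(TPM + 0.1) and library totals. Of 3244 values of single genes under alternatives 2936 kept direction and call, 299 lost the call, 136 of them under library totals or TPM and 149 with 1 library left out, and 9 turned sign. Whether depth limited the calls of low genes was not tested.

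Over all times the replicate numbers showed little pairing. Of 84 same-numbered pairs per arm the deviations correlated above 0.1 in 15 and 18, with medians of 0.0152 and 0.0267 and highest values of 0.277 and 0.285. These pairs join unlike conditions, so they cannot exclude that same-numbered libraries of the same time were handled together. At 24 h replicate 2 had the lowest library total in all 4 groups. With the replicate block the calls at 24 h were 36, 39 and 34 in VP64_Ctrl, H47_KO and VP64_A, those at 6 h 16, 9 and 18, those between 6 and 24 h 31 and those at 12 h 35. Between VP64_A and VP64_Ctrl they were 7 at 0 h, 9 at 24 h and 2 in the interaction.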
